A study of Mus musculus with 12 samples.

Results

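The caveolar gene group comprises the caveolins Cav1, Cav2 and Cav3, the cavins Cavin1, Cavin2, Cavin3 and Cavin4, and the membrane-bending partners Ehd2, Pacsin2 and Pacsin3. All 10 genes were found by the Ensembl identifier of their row among the 25700 genes of the count table. Cav1 and Cav2 were picked for their large rise in mSC in these same libraries, so their values are given as a description with no test. The other 8 members were listed by family or role. Schwann cells were sorted from the sciatic nerves of 5-day-old mice (postnatal day 5), and the 3 gates held 4 libraries each, which carry the numbers of the mice. All animals carried a Cre transgene active in the Schwann cell lineage, the ReYFP reporter that Cre switches on, and the βAct-DsRed reporter of all cells, each in the heterozygous state, and none was treated. The allSC gate took all eYFP-positive cells, the mSC gate the cells of high granularity (side scatter), enriched in myelinating Schwann cells, and the nmSC gate the cells of low granularity, enriched in cells that did not myelinate at that age. The nmSC gate is therefore not a sort of mature Remak cells.

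Caveolae are small flask-shaped pits of the plasma membrane, rich in cholesterol. Caveolins insert into the inner leaflet and oligomerize, and cavins coat the pit from the cytosol. CAVIN1 is needed for the pits to form. EHD2 is an ATPase that holds the neck, and the F-BAR proteins PACSIN2 and PACSIN3 bend the membrane. CAV3 and CAVIN4 belong chiefly to muscle. Caveolin-1 protein is known from Schwann cells, which make membrane on a large scale when they myelinate.

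Total counts were between 8180927 and 16918122 per library. Levels are given as CPM, counts scaled to the library size after TMM normalization. The labels of the gates were checked with markers. Mag, which encodes myelin-associated glycoprotein, averaged 566 CPM in nmSC, 1365 in allSC and 2269 in mSC. Mki67, a proliferation marker, averaged 227 CPM in nmSC and 19.97 in mSC, while Sox10, the lineage factor of Schwann cells, averaged 266 and 267 CPM in these gates. These are sums over sorted pools, in which fewer cells of a type and less RNA per cell cannot be told apart.

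Cav1, the principal caveolin outside muscle, was low in every nmSC library and high in every mSC library. In nmSC the libraries of mice 1 to 4 held 4.22, 4.50, 3.51 and 7.44 CPM, from 44 to 113 counts. The allSC libraries held 148, 119, 130 and 121 CPM. In mSC the values were 323, 255, 247 and 269 CPM, from 2159 to 4759 counts. The 3 gates did not overlap, and the order nmSC, allSC, mSC held in all 4 mice. The log2 fold change of mSC over nmSC was 5.78 ± 0.21 (SE, n = 4 and 4), or 54.9-fold, the 2nd highest of the 18597 genes tested. For allSC over nmSC it was 4.70 ± 0.20, or 26.1-fold, and for mSC over allSC 1.08 ± 0.17, or 2.11-fold.

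Cav2, which forms mixed oligomers with caveolin-1 and depends on it for its transport to the surface, followed the same order with a smaller span. The nmSC libraries held 5.66, 6.62, 2.46 and 8.16 CPM, from 33 to 124 counts. In allSC the values were 20.1, 22.3, 26.2 and 23.5 CPM, and in mSC 51.7, 55.8, 51.3 and 41.4 CPM. No library of one gate reached the range of another. The log2 fold change was 3.12 ± 0.24 for mSC over nmSC (8.70-fold), 2.00 ± 0.24 for allSC over nmSC and 1.12 ± 0.22 for mSC over allSC. The fold of mSC over allSC was thus alike for both caveolins (2.11 and 2.17), and their spans parted between allSC and nmSC, as the levels in nmSC were near each other and those in allSC were not.

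**Figure D1:**
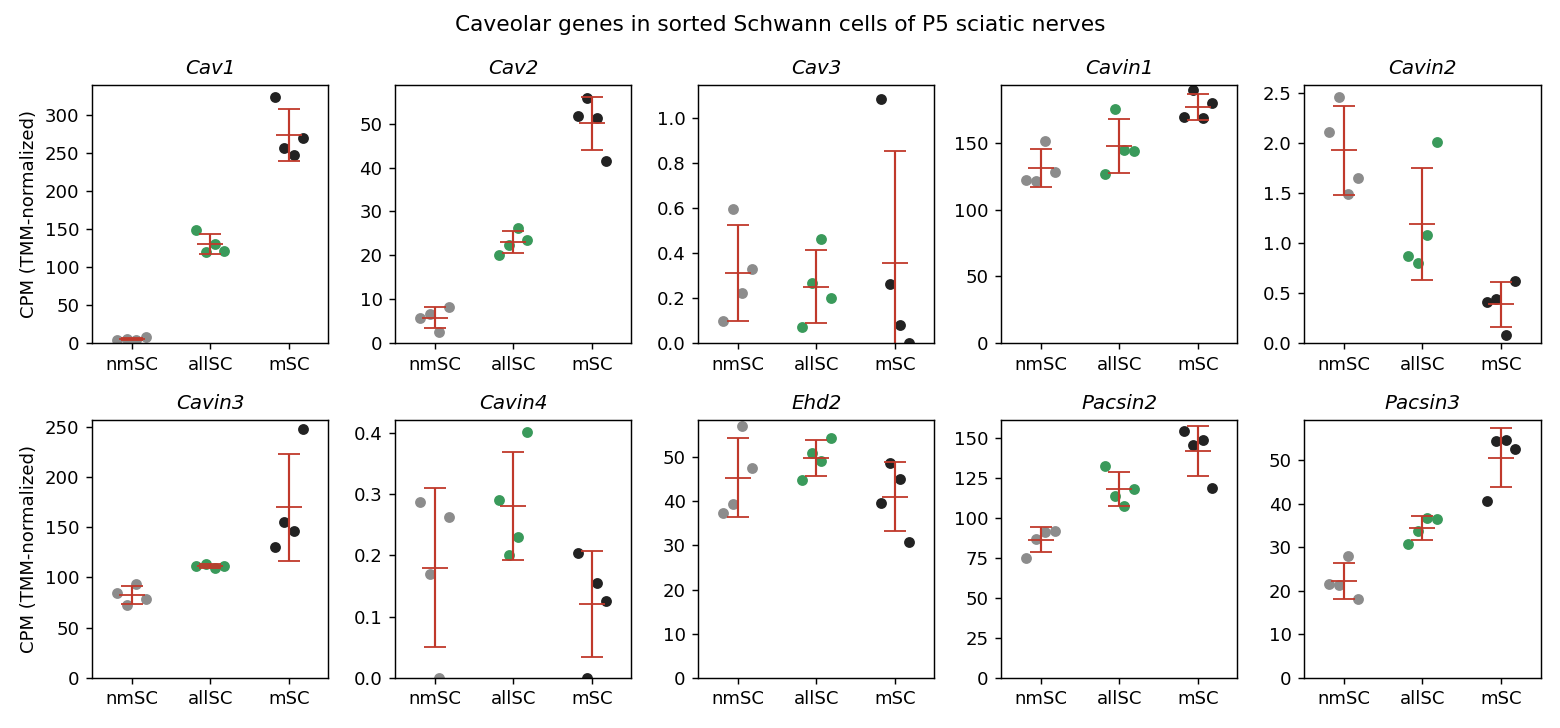
CPM of the 10 caveolar genes in each library (points, in the order of mouse 1 to 4 within a gate) of the nmSC, allSC and mSC gates, with the mean and SD in red (n = 4). Cav1 was between 3.51 and 7.44 CPM in nmSC and between 247 and 323 CPM in mSC, whereas Ehd2 overlapped between all gates and Cav3 and Cavin4 stayed near the limit of detection.

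Both genes lie on chromosome 6 of GRCm38 on the same strand, with Cav2 at 17281185 to 17289115 and Cav1 at 17306335 to 17341452, so that their starts are 25.1 kb apart. The 250 bases upstream of the first annotated start of each (RefSeq, GRCm38.p6, plus strand) are shown because these neighbours had the largest and the next largest rise of the group. Capitals mark matches to the CCAAT box (CCAAT), the GC box of SP and KLF factors (GGGCGG) and the TATA box (TATAAA), searched on both strands.
Cav1 chr6:17306085-17306334: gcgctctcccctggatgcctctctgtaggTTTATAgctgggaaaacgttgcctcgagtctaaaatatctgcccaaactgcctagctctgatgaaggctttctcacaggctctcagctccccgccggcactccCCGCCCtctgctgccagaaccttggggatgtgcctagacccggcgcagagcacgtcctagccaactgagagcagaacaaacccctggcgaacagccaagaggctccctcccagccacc
Cav2 chr6:17280935-17281184: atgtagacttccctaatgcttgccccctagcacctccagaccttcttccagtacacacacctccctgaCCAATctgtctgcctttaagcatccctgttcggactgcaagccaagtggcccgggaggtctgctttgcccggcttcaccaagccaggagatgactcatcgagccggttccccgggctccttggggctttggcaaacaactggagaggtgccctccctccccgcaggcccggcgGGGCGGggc
The GC box is in both windows and in 32.7% of 32851 windows of the same length. Cav1 has a second annotated start, whose window holds 0 matches to the letters searched. CCAAT stands in the Cav2 window and in 33.8% of all windows, and TATAAA in the Cav1 window, far from the start, and in 12.4% of all windows. The letters searched for EGR factors (GCGNGGGCG, in 4.70% of all windows) and for SREBP (TCACNCCAC, in 1.05%) were in 0 of the 14 windows of 9 caveolar genes. Cavin3 was not searched. The letters CATTCC, searched for TEAD factors, were in the Cavin1 and Pacsin3 windows and in 12.6% of all, and ACAAAG, searched for SOX factors, in a Pacsin3 window and in 16.5% of all.

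The muscle member Cav3 was not expressed at a level that could be compared. It had between 0 and 16 counts per library, and 16 only in the mSC library of mouse 1. A floor of 3 counts corresponds to 0.177 to 0.367 CPM, depending on the library. Cav3 did not pass the expression filter.

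Cavin1 and Cavin3 were well above Cav1 and Cav2 in nmSC, whereas Cavin2 and Cavin4 were below them. Cavin1, the coat protein that every caveola needs, stood at 123, 121, 152 and 128 CPM in nmSC. It was at 127, 175, 145 and 144 CPM in allSC and at 169, 190, 169 and 180 CPM in mSC. The mSC libraries lay above all nmSC libraries, while allSC overlapped with both. Cavin1 rose by a log2 fold change of 0.43 ± 0.12 from nmSC to mSC (adjusted p = 0.00969, quasi-likelihood test of edgeR, Benjamini-Hochberg adjusted over all genes tested), but its direction turned to -0.13 when libraries were scaled by total counts alone. With the 50 top genes left out of the library size, Cavin1 was at 0.068 and did not pass (adjusted p = 0.628, edgeR). Scaling by total counts alone moved the median of all tested genes from -0.16 to -0.73, and Cavin1 lay 0.60 above it. A change of scaling shifts nearly all genes alike, so this distance could not move and says nothing on stability.

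Cavin2, which adds curvature to the coat, went the other way at a low level. Its libraries held 2.11, 2.46, 1.49 and 1.65 CPM in nmSC (20 to 29 counts), 0.87, 0.80, 1.08 and 2.01 CPM in allSC, and 0.41, 0.43, 0.08 and 0.62 CPM in mSC (1 to 6 counts). Every mSC library was below every library of the other gates, which overlapped. The log2 difference was -2.35 (SE 0.49) for mSC over nmSC and -1.64 (SE 0.51) for mSC over allSC. Cavin2 passed the filter on low counts only through the nmSC and allSC libraries, since 0 of 4 mSC libraries reached the level of the filter. A lower value in mSC was thus built into its selection, and its differences from mSC are given as a description with no test.

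Cavin3, the cavin that binds protein kinase C delta, rose with myelination-enriched gating. It was at 84.2, 72.5, 93.3 and 78.7 CPM in nmSC and at 112, 114, 109 and 111 CPM in allSC. In mSC it was at 130, 156, 146 and 249 CPM, and the library of mouse 4 stood above the others. The gates did not overlap. The log2 fold change from nmSC to mSC was 1.05 ± 0.17 (adjusted p = 4.49e-05, edgeR), and without that library it was 0.81 (adjusted p = 2.99e-06). An exon of Cavin3 overlaps Gm45667 on the opposite strand, which averaged 21.3 CPM in nmSC and 44.9 CPM in mSC. Whether reads were counted by strand was not given in the sources used here, so reads of these genes cannot be told apart with certainty. Cavin4, the muscle cavin, had 0 to 4 counts per library and was not tested.

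Among the partners, both PACSINs rose and Ehd2 did not pass the test. Ehd2 was at 37.5, 39.3, 57.2 and 47.6 CPM in nmSC, at 44.8, 50.9, 49.1 and 54.5 CPM in allSC and at 39.7, 48.7, 45.2 and 30.7 CPM in mSC. All 3 gates overlapped. The log2 difference of mSC over nmSC was -0.15 ± 0.16 (adjusted p = 0.475, edgeR), and ± 2 SE around it spans -0.47 to 0.17, so that a change of the size seen for Cav1 or Cav2 lies outside this span. With total counts alone as the scale Ehd2 passed the test as lower (-0.70, adjusted p = 0.00164, edgeR), and its distance from the median of all genes, which scaling cannot move much, was 0.017 with TMM.

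Pacsin2, the widely expressed F-BAR protein of the caveolar neck, was at 75.2, 86.6, 91.2 and 92.0 CPM in nmSC. It was at 133, 114, 107 and 118 CPM in allSC and at 154, 145, 148 and 119 CPM in mSC. All nmSC libraries were the lowest, and allSC and mSC overlapped through the mSC library of mouse 4. Pacsin2 rose by 0.71 ± 0.12 on the log2 scale from nmSC to mSC (adjusted p = 0.000127, edgeR), although with total counts alone the value was 0.16 and did not pass (adjusted p = 0.277).

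Pacsin3, a PACSIN best known from muscle, was at 21.6, 21.2, 27.9 and 18.04 CPM in nmSC, at 30.8, 33.7, 36.8 and 36.4 CPM in allSC and at 40.6, 54.5, 54.7 and 52.6 CPM in mSC. No gate overlapped with another, and the mSC library of mouse 1 was the lowest of its gate. The rise from nmSC to mSC was 1.19 ± 0.15 (adjusted p = 3.29e-06, edgeR), the largest among the members that were tested, and it passed under each of the 19 alternatives. An exon of Pacsin3 overlaps Gm17281, a noncoding gene of the opposite strand that was not analysed here. Reads of these genes cannot be told apart with certainty either, as for Cavin3.

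**Figure D2:**
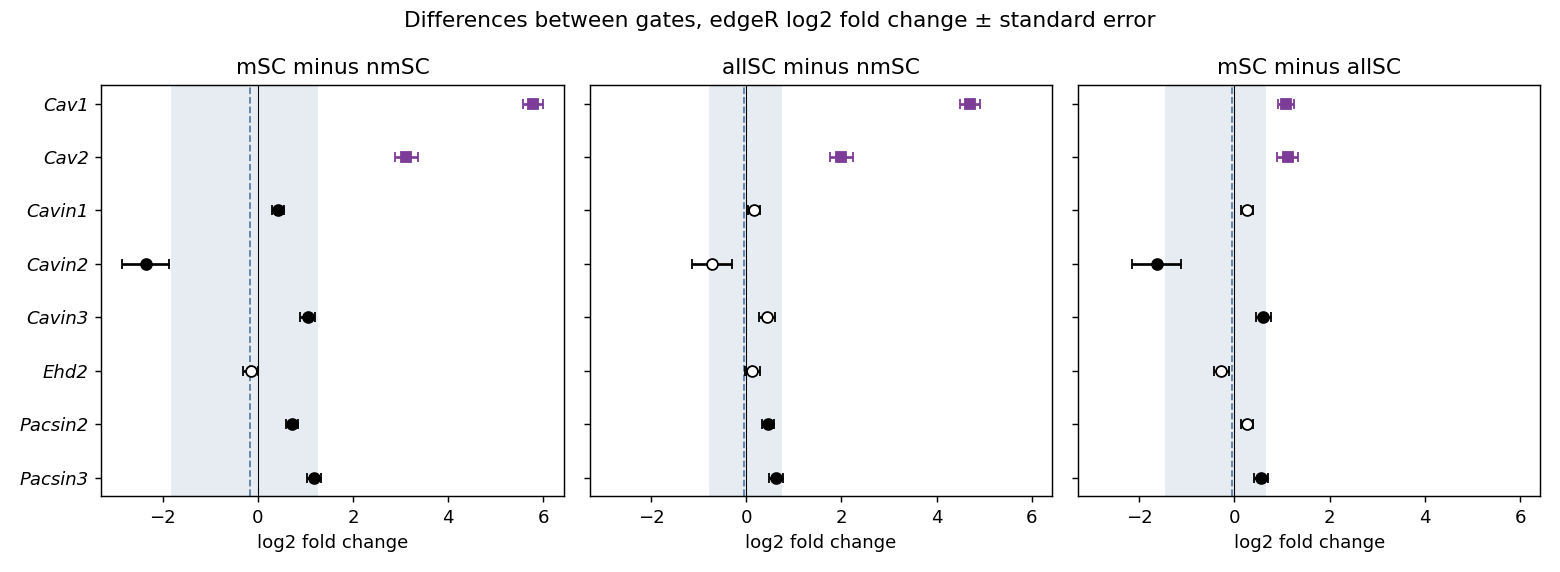
Log2 fold change (points) with SE (bars) of the 8 members that passed the expression filter, for mSC over nmSC, allSC over nmSC and mSC over allSC. Filled circles passed the edgeR test at an adjusted p of 0.05 and open circles did not, purple squares are Cav1 and Cav2, which were picked by their values and not tested, the dashed line is the median of all tested genes and the shaded band their 5th to 95th percentile. Cav1 at 5.78 and Cav2 at 3.12 lie far right of the band in the first panel, while Cavin1, Cavin3, Ehd2, Pacsin2 and Pacsin3 lie within it. The filled circles of Cavin2 are not read as results, since the filter on low counts fixed their direction.

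Altogether 6 of the 8 members not picked by their values were tested. Of these, 4 rose from nmSC to mSC (Cavin1, Cavin3, Pacsin2 and Pacsin3), 1 did not pass (Ehd2), and 1 was called lower (Cavin2), which is not read as a result because the filter fixed its direction. Among all tested genes 40.5% passed in this comparison, 20.4% higher and 20.2% lower. With total counts alone as the scale, 1443 genes were higher and 10421 lower, beside 3792 and 3748 with TMM. The median log2 fold change of the 6 genes was 0.57, beside -0.16 over all genes, and includes Cavin2, whose place among the tested genes rested on nmSC and allSC. The mSC range lay wholly above the nmSC range for the 4 genes that rose, as it did for 16.8% of all tested genes.

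The allSC gate, which holds cells of both kinds, lay between the other gates on average for Cav1, Cav2 and the members that rose. For Cav1 the mean of allSC stood at 46.4% of the way from nmSC to mSC on the linear scale, with 43.3% to 52.2% within single mice, and for Cav2 at 39.1% (31.3% to 48.7%). Pacsin3 stood at 43.0% (33.1% to 53.0%), Cavin3 at 33.3% (19.2% to 60.2%) and Pacsin2 at 57.4% (28.3% to 97.9%). Cavin1 stood at 36.3% with -40.9% to 78.6%, so that it was not between the other gates in every mouse. Over the 1372 genes called at least 2-fold higher in mSC the median was 43.0%.

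From nmSC to allSC, 2 of the 6 tested members rose and 0 fell, while over all genes 10.4% passed, 7.54% higher and 2.83% lower. Pacsin3 rose by 0.63 ± 0.15 (adjusted p = 0.00892, edgeR) and Pacsin2 by 0.45 ± 0.12 (adjusted p = 0.0225, edgeR). With total counts alone both calls were lost (Pacsin3 0.37, adjusted p = 0.0857, and Pacsin2 0.20, adjusted p = 0.301, edgeR), and without the 50 top genes that of Pacsin2 was lost (adjusted p = 0.132). The call of Pacsin2 was also lost when any of the allSC libraries of mice 1, 2 and 4 or the nmSC libraries of mice 1 and 2 was left out (adjusted p from 0.0504 to 0.0989). Cavin3 was at 0.44 ± 0.16 (adjusted p = 0.108) and passed without the mSC library of mouse 4 (adjusted p = 0.00657, edgeR), which is in neither gate compared but enters the model's scaling, filter and estimate of spread. Cavin1 (0.17, adjusted p = 0.485), Ehd2 (0.13, adjusted p = 0.728) and Cavin2 (-0.71, adjusted p = 0.372) did not pass in edgeR.

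From allSC to mSC, Cavin3 rose by 0.61 ± 0.16 (adjusted p = 0.0146, edgeR) and Pacsin3 by 0.56 ± 0.15 (adjusted p = 0.0137), so that 2 of 6 were higher. The 1 lower call was again Cavin2, whose direction the filter fixed, and is not read as a result. The share of all genes that passed was 17.6%, with 8.76% higher and 8.8% lower. Pacsin2 (0.26, adjusted p = 0.153), Cavin1 (0.26, adjusted p = 0.159) and Ehd2 (-0.28, adjusted p = 0.250) did not pass in edgeR, though Pacsin2 did without the mSC library of mouse 4 (adjusted p = 0.0222). With total counts alone, Cavin3 (0.28, adjusted p = 0.151) and Pacsin3 (0.24, adjusted p = 0.212) no longer passed. Without the 50 top genes both were lost as well (adjusted p = 0.0764 and 0.0998, edgeR). Ehd2 passed as lower under both scales (-0.58, adjusted p = 0.0171, and -0.48, adjusted p = 0.0413, edgeR). The 3 comparisons share libraries and are not independent of each other.

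Levels of different genes were compared per length, as RPKM over the merged exons of each gene. In nmSC the cavins led, with Cavin3 at 49.4 ± 5.3 and Cavin1 at 36.5 ± 4.0 RPKM (SD, n = 4), followed by Pacsin2 at 17.6 ± 1.6, Ehd2 at 8.87 ± 1.76 and Pacsin3 at 5.13 ± 0.95. The caveolins came after all of these, with Cav2 at 1.72 ± 0.72 and Cav1 at 1.43 ± 0.50 RPKM, whose libraries overlapped. Cavin2, Cav3 and Cavin4 were below 1 RPKM in every library of nmSC.

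The place of the caveolins in this order differed between gates. In mSC, Cav1 at 79.4 ± 9.9 RPKM stood above Cavin1 at 49.3 ± 2.8 without overlap, and was not set apart from Cavin3 at 102 ± 32. Pacsin2 followed at 28.9 ± 3.2, and Cav2 at 15.0 ± 1.8 overlapped with Pacsin3 at 11.7 ± 1.6, which overlapped with Ehd2 at 8.02 ± 1.53. In allSC, Cavin3 led at 67.1 ± 1.0, and Cavin1 at 41.1 ± 5.6 overlapped with Cav1 at 37.7 ± 3.9 RPKM.

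The ratio of Cavin1 to Cav1 in RPKM therefore spanned a wide range. It averaged 27.9 in nmSC (16.5 to 41.6 over the libraries), 1.11 in allSC (0.820 to 1.41) and 0.629 in mSC (0.504 to 0.713). The ratio of Cav1 to Cav2 was 0.910 in nmSC, 5.53 in allSC and 5.36 in mSC. The comparison between genes depends on the length used. The mean transcript length of Cav1 is 925 bases, where the union of exons has 3444. Per mean transcript length, Cav1 would be at 296 RPKM in mSC and 140 in allSC, above Cavin3 in both gates. In nmSC it would be at 5.31 RPKM, still below Cavin1 at 63.1 but above Cav2 at 3.90. Cavin1 would then stand above Cavin3, at 49.4 RPKM, in nmSC.

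**Figure D3:**
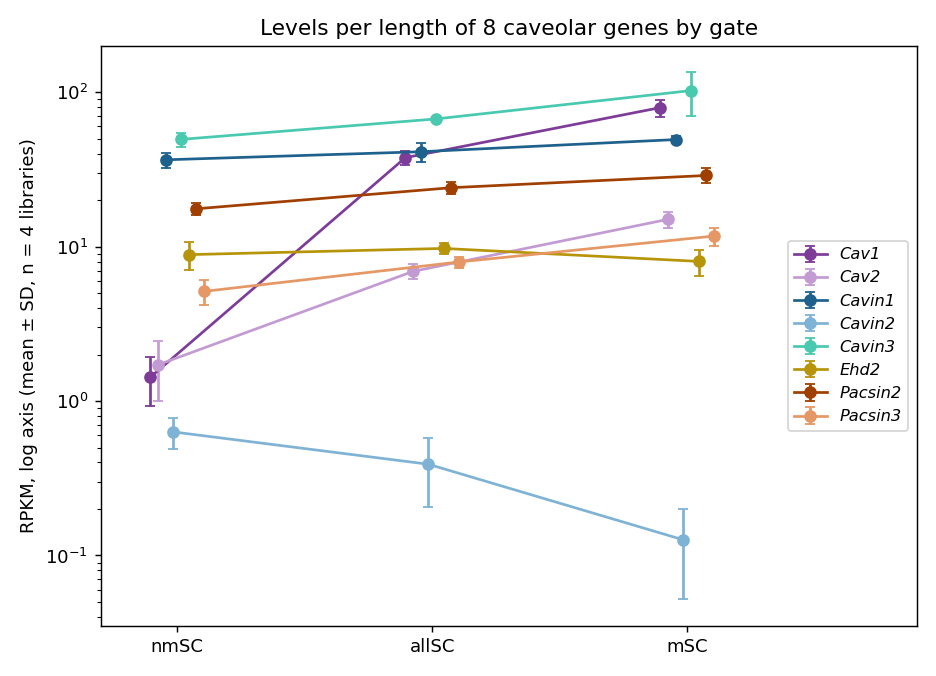
Mean level per length (RPKM over the union of exons, log axis, bars SD, n = 4 libraries) of 8 caveolar genes in the nmSC, allSC and mSC gates. Cav1 goes from 1.43 RPKM in nmSC to 79.4 in mSC and passes Pacsin3, Ehd2, Pacsin2 and Cavin1, whereas the lines of Cavin1, Cavin3 and Pacsin2 are shallow and that of Cavin2 falls.

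None of the protein-coding genes next to the Cav2 and Cav1 pair rose as far as the pair did. On the side of Cav2, Tes, a focal adhesion protein gene, was at -0.74 (adjusted p = 0.218) and Mdfic, an inhibitor of MyoD family proteins, at -0.28 (adjusted p = 0.456), and neither passed in edgeR. With total counts alone both passed as lower (-1.31, adjusted p = 0.0302, and -0.86, adjusted p = 0.0217, edgeR). Tes averaged only 1.57 CPM in nmSC and 0.90 in mSC, with at most 27 counts in a library, near the filter level of 0.774 CPM. Tfec, a transcription factor of the MITF family, fell by 0.99 from nmSC to mSC (SE 0.36, adjusted p = 0.0356, edgeR), a call at 1.25 to 2.46 CPM that was lost without the mSC library of mouse 1 or 2 or the nmSC library of mouse 2 or 4 (adjusted p from 0.0705 to 0.140). On the side of Cav1, Met, the receptor of hepatocyte growth factor, fell by 1.15 (SE 0.18, adjusted p = 3.37e-05, edgeR), from 47.3 ± 5.4 CPM in nmSC to 21.3 ± 6.2 CPM in mSC. Its start is 157.5 kb from that of Cav1. Capza2, an actin capping protein gene, rose by 0.54 ± 0.11 (adjusted p = 0.000784, edgeR), which turned to -0.027 with total counts alone, and St7 was at 0.40 ± 0.17 (adjusted p = 0.0682), which turned to -0.17.

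**Figure D4:**
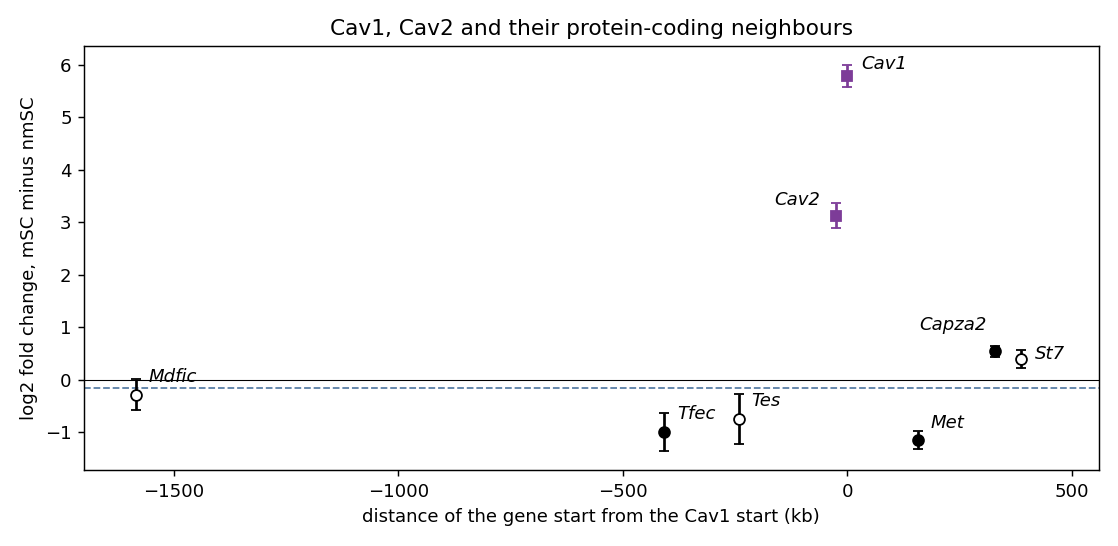
Log2 fold change of mSC over nmSC (SE as bars) for Cav1, Cav2 and the 3 nearest protein-coding genes on each side, against the distance of the gene start from that of Cav1 in kb. Cav2 lies 25.1 kb away and, like Cav1, is drawn as a purple square with no test. Filled circles passed the edgeR test and open circles did not, and the dashed line is the median of all tested genes.

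Over the 12 libraries, the profile most like that of Cav1 was that of Drp2, a protein of the dystroglycan complex at the outer surface of myelinating Schwann cells. Likeness was the root mean square difference of centred log2(CPM + 1) values, over 9400 genes of at least 10 CPM on average, and all such genes share libraries and depth. It was 0.320 for Drp2, at 17.2 ± 4.6 CPM in nmSC, 427 ± 70 in allSC and 830 ± 253 in mSC. Next came Cntf (0.344), a neurotrophic factor of myelinating Schwann cells, Mme (0.369), the endopeptidase neprilysin, Fam107a (0.441) and H2-DMa (0.466), a chaperone of MHC class II. Cav2 took the 73rd place at 1.24, Pacsin3 was at 2.00 and Cavin1 at 2.28. Since Cav1 was picked for its large rise, this measure puts genes with a rise of like size first. The order is a description only.

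The pathway around the members was described with 4 gene lists, of which 37 of 39 genes were tested. From nmSC to mSC 15 rose, 5 fell and 17 did not pass, where 20.4% of all tested genes rose and 20.2% fell. With total counts alone 6 rose and 12 fell. In the list of EHD and PACSIN paralogs 3 of 4 rose and 1 fell, in contrast to Ehd2, and these counts held under each of the 19 alternatives. Ehd3, an EHD protein of endosomal recycling, was at 4.31, 4.41, 7.01 and 5.66 CPM in nmSC and at 32.6, 26.4, 33.0 and 22.0 CPM in mSC, a rise of 2.40 ± 0.19 (adjusted p = 5.39e-09, edgeR). Ehd4, a close relative, went from 15.8 ± 3.3 to 70.2 ± 6.2 CPM (2.15 ± 0.15, adjusted p = 9.58e-10, edgeR). Ehd1 rose by 0.95, and Pacsin1, the neuronal PACSIN, fell by 2.03, from 11.98 ± 3.56 to 2.97 ± 0.56 CPM.

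Flotillins and related proteins of the SPFH family form membrane microdomains without caveolins. Of 7 tested genes 2 rose and 0 fell, near the 20.4% of all genes that rose. The count was 1 higher and 4 lower with total counts alone, and 4 higher by the Wald test of DESeq2. Flot1 rose by 1.45 ± 0.13 (adjusted p = 5.12e-08, edgeR), from 60.6 ± 9.8 CPM in nmSC to 166 ± 18 CPM in mSC, without overlap. Its partner Flot2 was at 0.27 ± 0.12 (adjusted p = 0.0796) and did not pass.

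Of 13 tested genes linked to signalling and scission of caveolae, 3 rose and 4 fell, near the shares of all genes (20.4% and 20.2%), and with total counts alone 1 rose and 6 fell. The Src family kinases moved in both directions. Src, which phosphorylates caveolin-1, fell by 1.70 (SE 0.18, adjusted p = 3.14e-07, edgeR), from 20.7 ± 1.9 CPM in nmSC to 6.30 ± 1.64 CPM in mSC. Yes1 rose by 1.17 ± 0.17 (adjusted p = 1.95e-05, edgeR), from 26.5 ± 5.9 to 59.7 ± 12.7 CPM, and Fyn rose by 0.63. The dynamin Dnm3 fell by 1.12 (SE 0.14, adjusted p = 2.27e-06, edgeR), while the ubiquitous dynamin Dnm2 was at 0.29 ± 0.16 (adjusted p = 0.152) and did not pass. Igf1r and Flna, a receptor and an actin crosslinker that binds caveolin-1, also fell, by 0.80 and 0.69.

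Clathrin-coated pits, the other main coated pits of the plasma membrane, gave 7 of 13 genes that rose and 0 that fell, beside 20.4% and 20.2% of all genes. The clathrin light chain gene Cltb led with 1.47 ± 0.15 (adjusted p = 1.48e-07, edgeR), from 65.4 ± 8.2 CPM in nmSC to 181 ± 41 CPM in mSC. Clta, Epn2, Ap2m1, Eps15, Epn1 and Ap2a2 rose by 0.77 to 0.51. With total counts alone as the scale 1 gene of this list rose and 1 fell, so that the count rests on the scaling.

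**Figure D5:**
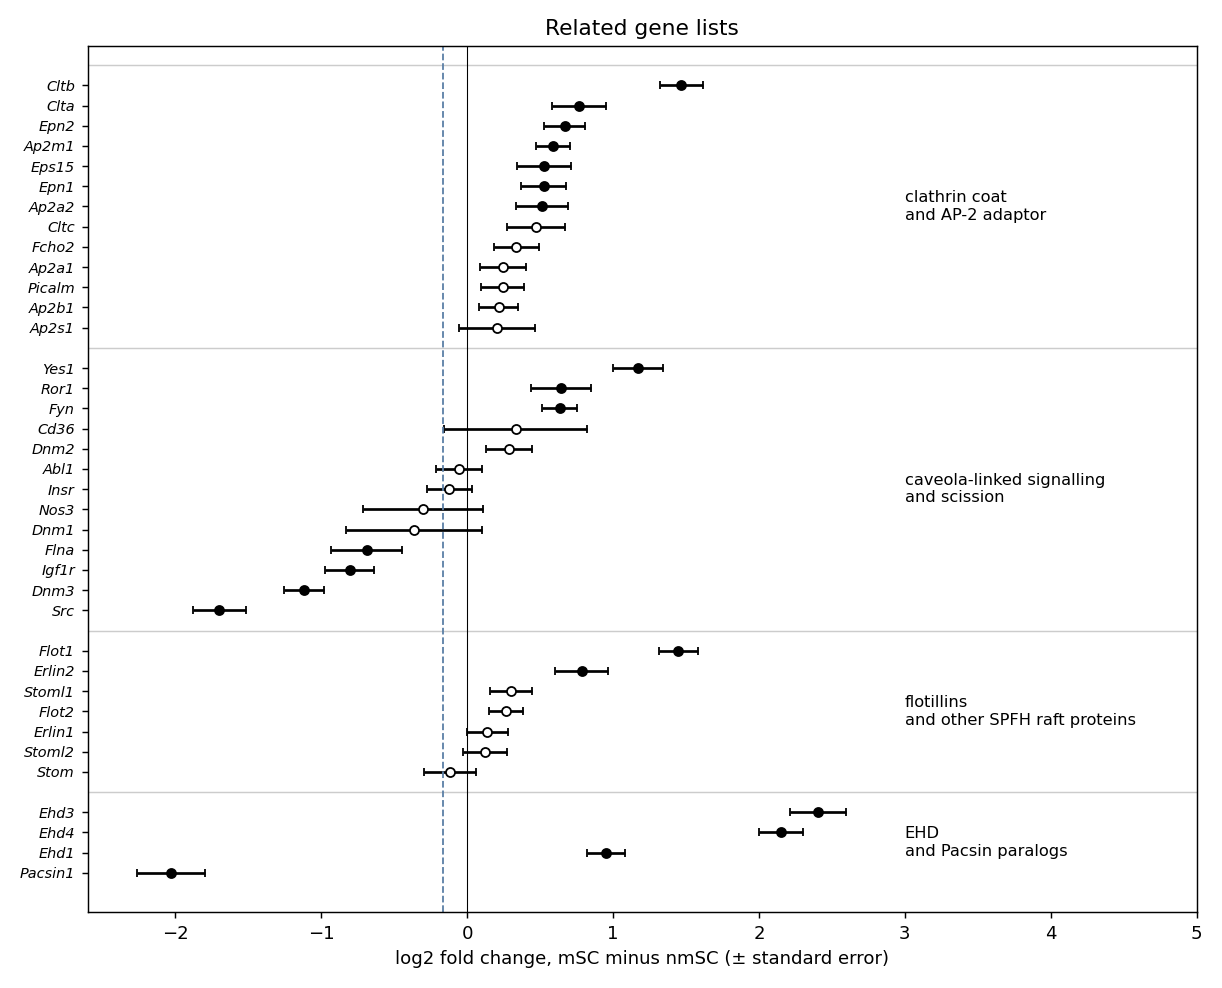
Log2 fold change of mSC over nmSC with SE for the 37 tested genes of the 4 related lists, sorted within each list. Filled circles passed the edgeR test at an adjusted p of 0.05, open circles did not, and the dashed line is the median of all tested genes. Ehd3 at 2.40 and Ehd4 at 2.15 are the highest and Pacsin1 at -2.03 the lowest.

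Caveolae are abundant in endothelial cells, adipocytes, smooth muscle and fibroblasts, so markers of these cells were summed in each library. The 10 endothelial markers summed to 19.9 to 34.9 CPM in nmSC, 38.4 to 42.4 in allSC and 54.0 to 74.97 in mSC and so moved with Cav1, with its part in that result not tested. The rise of the sum came from Kdr and Egfl7, which averaged 5.88 and 9.25 CPM in nmSC and 20.3 and 35.6 CPM in mSC. Of the 7 markers tested, 2 rose from nmSC to mSC, 3 fell and 2 did not pass, beside 20.4% and 20.2% of all genes that rose and fell. The other 8 summed to 8.76 to 16.97 CPM in nmSC and 4.42 to 7.74 CPM in mSC, a split made after the values were seen. Of these 8, Pecam1 was at 1.09 to 1.49 CPM in mSC, Cdh5 at 0.311 to 0.679 and Plvap at 0 to 0.155. Cldn5 averaged 0.357 CPM in nmSC and 0.908 in mSC. Of the 10 markers 6 were at most 3 CPM in every library.

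Adipocyte markers summed to 6.81 to 15.1 CPM in nmSC and 8.23 to 11.4 in mSC, with Adipoq at most 0.339 CPM in mSC. Skeletal muscle markers summed to 46.5 to 64.7 CPM in nmSC and 25.5 to 38.6 in mSC. Pericyte and smooth muscle markers were between 39.2 and 51.6 CPM in nmSC and between 43.5 and 51.8 in mSC, with Acta2 at most 0.998 CPM in mSC, although Tagln averaged 4.71 CPM in nmSC and 24.9 in mSC. Fibroblast markers summed to 9378 to 14243 CPM in nmSC and 890 to 2250 in mSC and so moved with Cavin2. Nearly all of this sum was Col1a1 and Col3a1, and Pdgfra averaged 2.34 CPM in both gates. Perineurial markers summed to 75.5 to 97.3 CPM in nmSC and 63.9 to 103 in mSC, and immune markers to 22.4 to 33.6 and 16.5 to 25.2 CPM. Of the Schwann cell markers, 7 of 7 of the myelinating list rose in mSC and 5 of 5 of the immature and proliferating list fell. Of 6 lineage markers 2 rose and 1 fell. Of all tested genes 20.4% rose and 20.2% fell. The part of these cells in the differences of Cavin2 and of the members that rose was not tested.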

How the data were processed

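Schwann cells of 4 mice were sorted through 3 gates, and libraries were made with Smart-Seq2, which copies polyadenylated RNA along its length and amplifies it by PCR without molecular identifiers. The authors trimmed reads, aligned them with STAR 2.6.1c, counted them per gene with featureCounts, and deposited raw counts. The submitters' processing notes name GRCm38.p5, whereas the methods print a human build. Options for strand and multi-mapping reads were not given in the sources used here. Symbols, positions and lengths came from GENCODE M21 (GRCm38), which matched 25664 of 25700 identifiers.

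Counts were normalized by TMM, filtered by gate and tested with edgeR 4.0.16 (R 4.3.3, quasi-likelihood test) in 1 model over 12 libraries, with Benjamini-Hochberg adjustment over 18597 genes, a threshold of 0.05, and SE taken as the log2 fold change divided by the root of F. The steps were tested on simulated data. Members and lists were chosen with earlier results of these data known. The text names all members, list genes with an adjusted p under 0.05, a log2 change of at least 1 and a mean of at least 10 CPM, the 5 profiles most like Cav1, and 3 neighbours on each side. Ehd1, Pacsin1, Flot2, Fyn, Igf1r, Flna, Dnm2, the further clathrin genes, Mag and single markers of other cell types were named after their values were seen. The subject label gives libraries of the same number the same subject, taken here as 1 mouse, and the correlations of same-numbered deviations were -0.079 to 0.15. No 2 libraries of a gate were duplicates (chi-square per degree of freedom at least 4.03). The mSC library of mouse 4 was the most distant, at 50.6 to 95.7 from the other mSC libraries, which were 6.01 to 22.1 from each other. DESeq2 1.42.0 was an alternative. Counting limits cover counting error only.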

Additional observations from a re-analysis of the deposited data

Results flagged for a closer look

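Among the 30 groups of 4 libraries checked (10 members in 3 gates), 1 had a library set apart from the others by Dixon's criterion, which chance gives in about 1 of 20 groups. Pacsin3 in the mSC library of mouse 1 was at 40.6 CPM, where the other mSC libraries were between 52.6 and 54.7 CPM. The gap was 0.852 of the range, above the 95% critical value for 4 samples. Without that library the log2 fold change of Pacsin3 from nmSC to mSC was 1.29 (adjusted p = 4.15e-07, edgeR), beside 1.19 with it.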

How the results depend on the processing

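Scaling decided most changes. Wherever members are counted as lower in mSC in this section, Cavin2 is 1 of them. Its direction was fixed by the filter, so that call is not read as a result. With library size only, 2 tested members were higher and 2 lower in mSC than in nmSC (all genes 1443 and 10421), 0 were higher in allSC than in nmSC (all genes 744 and 2207), and 0 were higher and 2 lower in mSC than in allSC (all genes 415 and 3985), while pathway genes gave 6 and 12. Reversed values were Cavin1 at -0.13, -0.081 and -0.051 for mSC over nmSC, allSC over nmSC and mSC over allSC, Ehd2 at -0.12 for allSC over nmSC, Pacsin2 at -0.038 for mSC over allSC, Capza2 at -0.027 and St7 at -0.17. Without the 50 top genes in the library size, 3 members were higher and 2 lower for mSC over nmSC (all genes 2049 and 7693). For allSC over nmSC 1 member was higher (all genes 940 and 1224). For mSC over allSC 0 were higher and 2 lower (all genes 641 and 2755). Pathway genes gave 7 and 8, and Ehd2 was at -0.018 for allSC over nmSC. Higher genes made up 50.3% of all calls for mSC over nmSC with TMM, 12.2% with library size only and 21.03% without the 50 top genes. For allSC over nmSC these shares were 72.7%, 25.2% and 43.4%, and for mSC over allSC 49.9%, 9.43% and 18.9%. The cause was not tested.

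A model of only the gates compared gave 3 members higher in allSC than in nmSC (all genes 1750 higher, 1149 lower). Leaving out each library gave 1 to 3 members higher in allSC than in nmSC (all genes 1022 to 1817 higher, 306 to 968 lower). For mSC over allSC it gave 2 to 3 members higher and 0 to 1 lower (all genes 1009 to 2274 and 1196 to 1930), the lower one being Cavin2. Per mean transcript length, 16 of 30 places in the order of levels kept their gene. With the mouse number as a block, 4 members were higher and 1 lower (Cavin2, not read as a result) in mSC than in nmSC, with 3626 and 3547 genes in all. This pairing changed no call of a member, and among the neighbours it changed that of St7, which passed (0.40, adjusted p = 0.0430, edgeR). Of 696 values of single genes under the alternatives, 642 were rated as unchanged. For tested genes this means the same direction and side of the threshold. The values of Cav1 and Cav2, which had no test, are among the 696 and were rated by size alone. At these depths, differences in Cav3 and Cavin4 were not detectable.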
